A study of Mus musculus with 9 samples.

Results

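The genes described here encode the ligands, receptors and SMAD proteins of the TGF-beta and BMP family, with secreted antagonists and the Id genes that the pathway controls. They were chosen by gene symbol from the annotation of the probe sets (groups of probes that read 1 transcript region). The rule used no values, but it was set with earlier results of these data known. The symbols were those of the BMPs, GDFs, TGF-betas, activin and inhibin subunits, their receptors, Smad1 to Smad9, Id1 to Id4, Bmper, Nog, Chrd and Grem1; Gdf15 and Tgfbr3l are not analysed here. Of 19938 genes with a probe set of their own, 57 matched, and each was read by 1 probe set. By role these were 10 BMP ligands, 8 GDF ligands, 3 TGF-beta ligands, 5 activin and inhibin subunits, 4 secreted antagonists and modulators, 7 type I receptors, 4 type II receptors, 1 co-receptor, 8 SMADs and 4 Id genes. The last 3, Bmp1, Bmp2k and Tgfbrap1, matched by name but are neither ligands nor receptors. Gdf1 shared its probe set with Cers1 and was not counted.

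The arrays compared newborn mice of the C57BL/Ka strain with a LacZ allele of Prdm16. The groups were Prdm16LacZ/LacZ (KO), Prdm16LacZ/+ (HET) and Prdm16+/+ (WT), with 3 Affymetrix Mouse Gene ST 1.0 arrays each. RNA came from cells dissected from the brain ventricular zone, the progenitor layer along the ventricles, with no culture and no treatment. The labels do not give the number of animals, litters or pools behind the arrays. Xist, which females express from the inactive X chromosome, was high (10.04 or more) in 2 of 3 KO, 1 of 3 HET and 1 of 3 WT arrays and low (4.42 to 4.99) in the others. The arrays of a genotype therefore did not all come from 1 animal, and the sexes were not balanced between KO and the other genotypes. P-values measure the spread between these arrays, part of which may be technical.

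Ligands of this family are secreted dimers that bind a complex of type I and type II receptor kinases. The type I receptor phosphorylates receptor SMADs. For BMPs and some GDFs they are Smad1, Smad5 and Smad9, and for TGF-betas, activins and other GDFs Smad2 and Smad3. These join Smad4 and enter the nucleus, where BMP signals raise the Id genes. Smad6 and Smad7 restrain the receptors, and Noggin, Chordin and the Grem1 product bind ligands outside the cell. In the developing forebrain BMPs pattern the dorsal midline, favour choroid plexus and astrocyte fates and restrain neurogenesis. PRDM16 is a zinc finger regulator, and the human protein is known to bind SKI and SMAD proteins and to restrain TGF-beta responses in cancer cells.

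Values are log2 signals, as deposited. The 9 arrays were similar, with medians of 5.80 to 5.92 and lower quartiles of 4.53 to 4.68. Prdm16 fell in KO (5.69, 6.41 and 6.17 in KO, 6.995, 7.34 and 6.998 in HET, and 7.62, 7.57 and 7.23 in WT arrays; adjusted p = 0.010 for KO against WT). Leaving out WT array 1 or 2 ended that call (adjusted p = 0.076 and 0.069), as did fitting only the KO and WT arrays (0.080). All 10 radial glia markers reached the lower quartile in at least 1 array, and 0 of the 10 passed the test in KO. Of the 10, 6 were higher and 4 lower in KO, with a median change of 0.01. Prom1 (-0.57, KO below every WT array) and Pax6 (-0.41) lay lowest and Sox2 (0.22) highest. Astrocyte markers were lower in KO for 6 of 8 genes, with 3 calls; Aldh1l1 (0.21, KO above every WT array) and S100b (0.06) were not lower. Their summed linear signal was 1226 to 1238 in KO, 1733 to 2388 in HET and 1838 to 2087 in WT arrays. Markers of ependymal cells and motile cilia were lower in 8 of 8, with 0 calls, and sums of 448.4 to 667.9 in KO, 769.3 to 860.0 in HET and 790.4 to 837.0 in WT. Choroid plexus, meninges, endothelial, microglial and neuronal lists had median changes within 0.10 of 0 on the log2 scale, with 1 call each in choroid plexus (F5, which rose) and meninges (Ogn, which fell). Choroid plexus sums were 615.9 to 655.8 in KO, 534.7 to 836.5 in HET and 621.3 to 651.3 in WT. Its marker Ttr read 8.16 in HET replicate 2, beside 6.08 and 5.53 in the other HET arrays. In bulk tissue, fewer cells of a type and less RNA per cell cannot be told apart, and the part of these shifts in the values below was not tested. KO replicate 2 stood apart: it held the single highest value of 16 of the 57 genes (28.1%) and of 20.4% of all genes. It and HET replicate 1 had the lowest array weights, 0.364 and 0.547.

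No gene of the family passed the test in KO against WT (0 of 57, adjusted p under 0.05 by limma over all genes), where 0.451% of all genes did. At an unadjusted p under 0.05 there were 5 (8.77%), beside 6.15% of all genes. These were Bmper, Bmpr1b and Tgfbrap1, higher in KO (3.28% of all genes), and Bmp6 and Bmp7, lower in KO (2.87% of all genes). The median log2 change over the family was -0.0004, with 28 genes above and 29 below 0, beside a median of 0.0064 over all genes. The median size of a change, without its sign, was 0.076 in the family and 0.073 over all genes. KO and WT arrays did not overlap for 8 genes (14.0%), beside 9.98% of all genes. Of these, 3 were higher in KO (5.63% of all genes) and 5 lower (4.34% of all genes). The 8 included Bmp2k and Tgfbrap1, which matched by name only. The count of 0 held in all 21 other settings, among them each array left out in turn, and an adjusted p under 0.10 in the fit of all arrays. The smallest adjusted p of a family gene in KO against WT was 0.054 with array weights, for Bmp6, 0.080 without KO replicate 2 and 0.075 without KO replicate 2 and HET replicate 1.

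**Figure D1:**
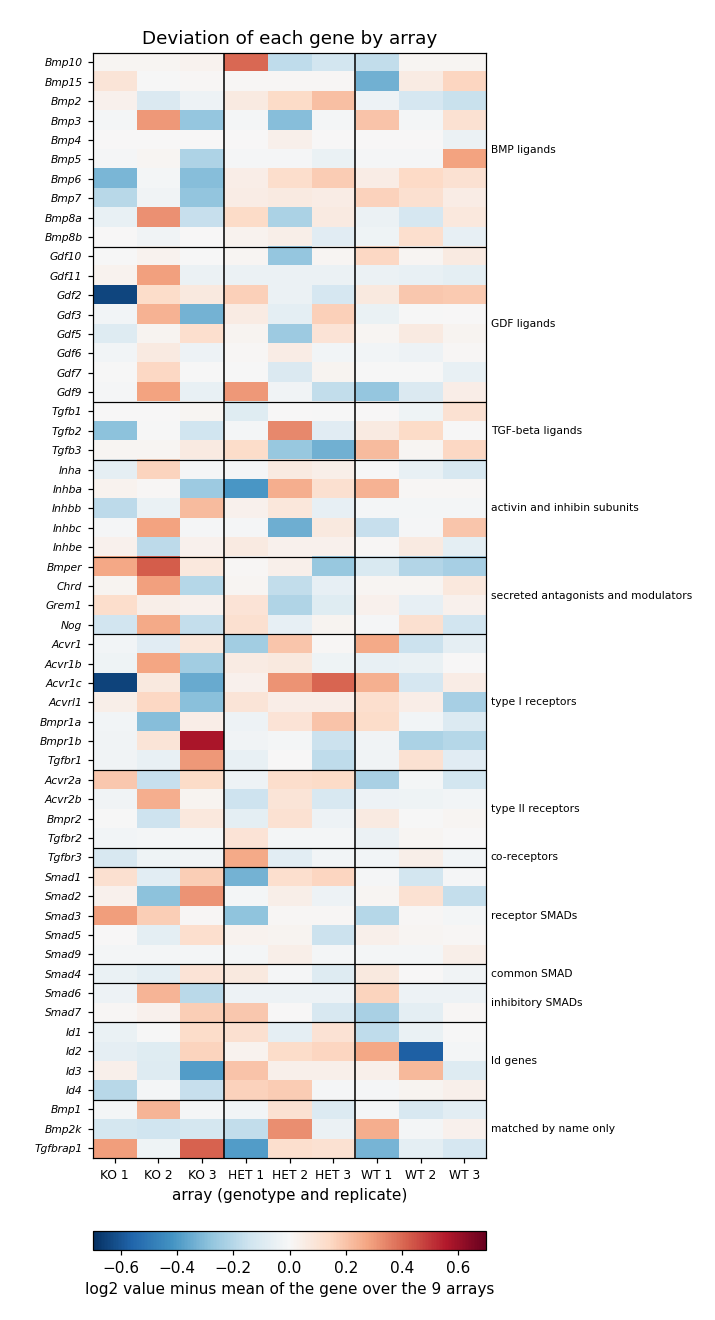
Each row is 1 of the 57 genes and each column 1 array (KO, HET and WT, 3 each). Colour gives the log2 value minus the mean of that gene over the 9 arrays, red above and blue below. No block of rows separates the KO columns from the WT columns, and the KO 2 column holds 16 of the highest values.

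The intervals give a range for the change in signal of each gene taken alone, not for the 57 genes together. They describe array signal from bulk tissue, and changes within single cell types were not tested. The 95% interval of the KO against WT change lay within 1.5-fold either way for 52 of the 57 genes (94.1% of all genes) and within 2-fold for all 57 (99.2% of all genes). The 5 whose interval reached beyond 1.5-fold were Bmper, Bmpr1b, Tgfbrap1, Acvr1c and Gdf2. Low values limit this: Bmp10, Gdf6 and Inhbe (3 of 57, beside 17.4% of all genes) fell short of the lower quartile on all 9 arrays, where a change might not be seen. Bmp5 fell short of it on 8 arrays, Bmp2 on 7, and Bmp15 and Id3 on 3 each. The deposited values also repeat. The same value stood in 7 of 9 arrays for Bmp4 and Smad9 and in 5 for Bmp5, Gdf7, Gdf11 and Smad6. That is 6 of 57 genes with at least 5 identical values (10.5%), beside 7.70% of all genes. Repeats in fewer arrays also occurred, among them in Smad3 (4 arrays), Bmpr1b (3 arrays) and Tgfb2 (2 arrays). Contact between groups at such a repeat may not be a measured agreement. The cause of the repeats was not tested.

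**Figure D2:**
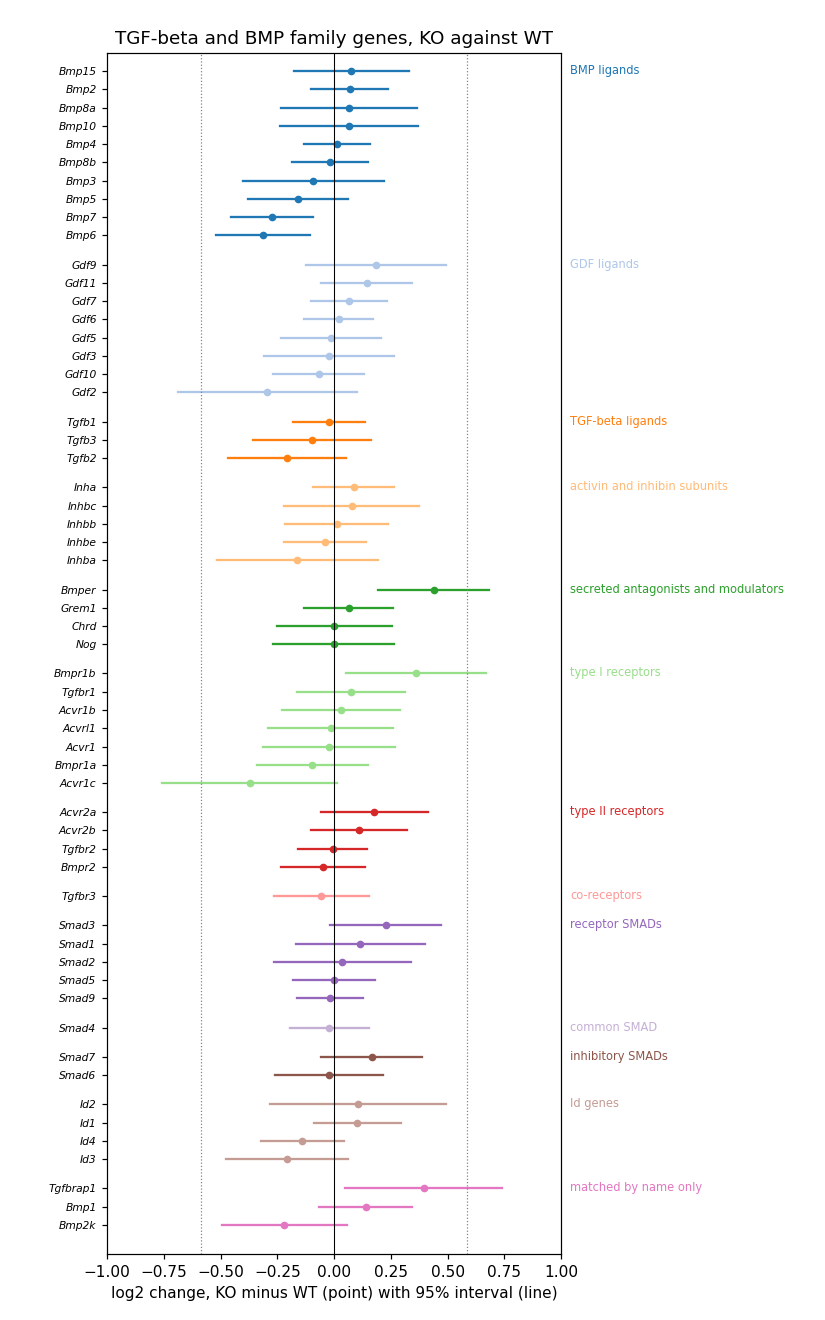
The log2 change of each gene in KO against WT (point) with its 95% interval (line), grouped by role. Dotted lines mark 1.5-fold in either direction. All 57 intervals lie within 2-fold, and the points run between -0.37 for Acvr1c and 0.44 for Bmper.

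Among the BMP ligands, Bmp6 and Bmp7 were lower in every KO array, and the other 8 lay between -0.16 and 0.08. Bmp6 and Bmp7 belong to the same BMP subgroup; Bmp7 is made by the meninges and the dorsal midline in the embryo. Bmp6 was measured at 5.78, 6.09 and 5.80 in KO, 6.15, 6.23 and 6.28 in HET, and 6.16, 6.24 and 6.21 in WT arrays. KO overlapped neither HET nor WT, while HET and WT overlapped. The KO against WT change was -0.31 (SE 0.093, 95% interval -0.52 to -0.10, adjusted p = 0.41). Bmp7 was measured at 5.10, 5.27 and 5.02 in KO, 5.34, 5.35 and 5.34 in HET, and 5.45, 5.40 and 5.34 in WT arrays. Again all KO values lay lowest, with a change of -0.27 (SE 0.081, 95% interval -0.45 to -0.09, adjusted p = 0.41). Meningeal markers, whose tissue makes Bmp7, were lower in KO for 8 of 10 genes with 1 call, Ogn; their sums were 446.5 to 522.3 in KO, 508.9 to 579.0 in HET and 530.8 to 579.3 in WT. Without Ogn the sums of the other 9 overlapped, at 414.7 to 476.7 in KO, 427.9 to 485.5 in HET and 448.6 to 455.0 in WT. The part of these markers in the Bmp7 values was not tested.

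Bmp4, the ligand most studied at the dorsal midline, gave no separation. It read 5.30 in all 3 KO arrays, between 5.30 and 5.33 in HET and between 5.26 and 5.30 in WT. The change was 0.01, with a 95% interval of -0.13 to 0.16. However, 1 repeated deposited value stood in 7 of the arrays, among them all 3 KO arrays. The match between genotypes may therefore not be a measured agreement, and the interval rests on the same repeated values. Bmp8a, at 6.57, 6.94 and 6.46 in KO, 6.75, 6.40 and 6.68 in HET, and 6.58, 6.504 and 6.69 in WT, overlapped across genotypes. It and Bmp8b are near-identical copies, so their probes may share transcripts. Of the rest, Bmp5 had a KO against WT change of -0.16, Bmp3 of -0.09, Bmp8b of -0.02, Bmp10 of 0.06, Bmp2 of 0.07 and Bmp15 of 0.08.

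The GDF ligands lay between -0.29 and 0.18 with a median of 0.003, and for 0 of 8 did KO and WT not overlap, beside the 9.98% of all genes given above. Gdf11, which limits the output of neural progenitors in several tissues, was 6.29, 6.56 and 6.23 in KO, 6.23 in all 3 HET arrays, and 6.23, 6.22 and 6.20 in WT. Its KO mean rested on replicate 2. Gdf7, a roof plate ligand, was 6.20, 6.34 and 6.20 in KO, 6.20, 6.10 and 6.22 in HET, and 6.20, 6.20 and 6.15 in WT arrays. Gdf2 had the lowest change of this group, -0.29 (SE 0.18), carried by KO replicate 1 at 4.21 beside 4.98 and 4.92 in the other KO arrays.

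All 3 TGF-beta ligands lay slightly below 0, with a median of -0.10, and none separated KO from WT. Tgfb2 was 7.43, 7.71 and 7.58 in KO, 7.70, 8.05 and 7.63 in HET, and 7.78, 7.85 and 7.71 in WT arrays (change -0.21, SE 0.12, adjusted p = 0.91). The highest KO value equalled the lowest WT value, a repeated deposited value. Tgfb3 was 5.56, 5.56 and 5.62 in KO, 5.68, 5.28 and 5.21 in HET, and 5.77, 5.56 and 5.70 in WT. Tgfb1, the form made largely by immune and vascular cells, had a change of -0.02.

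The activin and inhibin subunits also overlapped. Inha, the alpha subunit that turns an activin into an inhibin, was 6.48, 6.70 and 6.53 in KO, 6.53, 6.60 and 6.58 in HET, and 6.54, 6.49 and 6.43 in WT. Inhbb, a beta subunit, was 6.32, 6.46 and 6.73 in KO, 6.54, 6.59 and 6.45 in HET, and 6.49 in all 3 WT arrays. Inhba, Inhbc and Inhbe had changes of -0.16, 0.08 and -0.04.

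Bmper had the smallest unadjusted p of the family, 0.0025, and the largest positive change. It encodes a secreted protein that binds BMPs and can hinder or help their signal. Its values were 7.16, 7.32 and 6.97 in KO, 6.90, 6.93 and 6.63 in HET, and 6.78, 6.69 and 6.66 in WT arrays. Every KO value exceeded every HET and WT value, and HET overlapped WT. The change was 0.44, or 1.36-fold (SE 0.11, 95% interval 0.19 to 0.68), and its adjusted p of 0.23 did not pass. Over the 20 other settings that adjusted p lay between 0.085 and 0.69, with the change always positive.

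The classical antagonists showed no such separation. Grem1 was 5.92, 5.84 and 5.83 in KO, 5.89, 5.58 and 5.71 in HET, and 5.83, 5.74 and 5.83 in WT. Nog and Chrd had changes of -0.003 and 0.001, and for both KO replicate 2 was the highest of the 9 arrays, at 5.62 and 5.76.

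Type I receptors had a median of -0.01, with Bmpr1b highest and Acvr1c lowest. Bmpr1b encodes the BMP receptor ALK6. It was 6.93, 7.04 and 7.52 in KO, 6.93, 6.94 and 6.80 in HET, and 6.93, 6.73 and 6.75 in WT arrays. KO replicate 1, HET replicate 1 and WT replicate 1 shared 1 deposited value, and KO and WT touched only at that repeat. KO replicate 3 stood above all others. The change of 0.36 (SE 0.14, 95% interval 0.05 to 0.67, adjusted p = 0.70) came to 0.18 without KO replicate 3. Its relative Bmpr1a, encoding ALK3, was 9.51, 9.23 and 9.58 in KO, 9.49, 9.62 and 9.73 in HET, and 9.66, 9.51 and 9.43 in WT, with overlap throughout.

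Acvr1c, encoding the nodal and activin receptor ALK7, was 4.33, 5.05 and 4.62 in KO, 5.01, 5.29 and 5.39 in HET, and 5.23, 4.86 and 5.03 in WT. KO was the most variable genotype for it (SD 0.36), and KO replicate 1 lay below that array's lower quartile. The change was -0.37 (SE 0.17, adjusted p = 0.83). Tgfbr1, the TGF-beta type I receptor, was 8.34, 8.32 and 8.67 in KO, 8.32, 8.37 and 8.19 in HET, and 8.34, 8.47 and 8.29 in WT. Acvr1, Acvr1b and Acvrl1 had changes of -0.02, 0.03 and -0.01.

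Type II receptors did not separate by genotype. Bmpr2, which serves BMPs, was 10.88, 10.74 and 10.96 in KO, 10.82, 10.99 and 10.85 in HET, and 10.95, 10.88 and 10.90 in WT arrays. Its 95% interval of -0.23 to 0.13 held changes of at most 0.23 either way on the log2 scale. Acvr2a, which serves activins and some BMPs, was 10.43, 10.08 and 10.38 in KO, 10.21, 10.37 and 10.38 in HET, and 10.02, 10.23 and 10.11 in WT (change 0.18, SE 0.11, adjusted p = 0.93). Acvr2b and Tgfbr2 had changes of 0.11 and -0.007. The co-receptor Tgfbr3, or betaglycan, was 5.27, 5.36 and 5.36 in KO, 5.65, 5.31 and 5.37 in HET, and 5.37, 5.43 and 5.37 in WT. KO lay just below WT there, with a change of -0.06.

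The SMADs were close to level across genotypes, except that Smad3 and Smad7 lay somewhat higher in KO. Smad4, the partner shared by both branches, was 9.94, 9.91 and 10.08 in KO, 10.05, 9.98 and 9.89 in HET, and 10.05, 9.99 and 9.96 in WT (95% interval -0.20 to 0.15). Smad2 was 9.83, 9.51 and 10.11 in KO, 9.78, 9.84 and 9.76 in HET, and 9.81, 9.90 and 9.63 in WT. Its KO arrays spread widely (SD 0.30) around the same mean. Smad5 was 8.78, 8.71 and 8.90 in KO, 8.80, 8.80 and 8.63 in HET, and 8.81, 8.79 and 8.78 in WT. Smad1 and Smad9 had changes of 0.12 and -0.02.

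Smad3, the TGF-beta SMAD that human PRDM16 is known to bind, was 7.16, 7.04 and 6.88 in KO, 6.59, 6.88 and 6.88 in HET, and 6.67, 6.88 and 6.86 in WT. The lowest KO value equalled the highest HET and WT values, a deposited value repeated in 4 arrays. The change of 0.23 (SE 0.11, adjusted p = 0.85) did not pass. Of the inhibitory SMADs, Smad7 was 6.33, 6.35 and 6.49 in KO, 6.51, 6.32 and 6.21 in HET, and 6.10, 6.26 and 6.33 in WT. KO and WT narrowly failed to overlap, and the change of 0.17 (SE 0.10) had an adjusted p of 0.93. Smad6 was 4.76, 5.03 and 4.61 in KO, 4.76 in all 3 HET arrays, and 4.95, 4.76 and 4.76 in WT.

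The Id genes encode helix-loop-helix proteins without a DNA-binding region, which hold back differentiation factors; their transcription is a usual readout of BMP signalling. Their promoters are shown because their transcription is used in this way. Windows of 250 bases before the start came from RefSeq (GRCm38.p6), which held 41 of the 57 genes. No window of Id1 was available. The windows of Id2, Id3 and Id4 follow, 5′ to 3′ on the gene's strand. Capitals mark GGCGCC, a GC-rich element of BMP-type SMADs that reads the same on both strands, and CAGAC or its reverse complement GTCTG, which hold the core SMAD box.
Id2 (chr12:25096093-25096342, minus strand): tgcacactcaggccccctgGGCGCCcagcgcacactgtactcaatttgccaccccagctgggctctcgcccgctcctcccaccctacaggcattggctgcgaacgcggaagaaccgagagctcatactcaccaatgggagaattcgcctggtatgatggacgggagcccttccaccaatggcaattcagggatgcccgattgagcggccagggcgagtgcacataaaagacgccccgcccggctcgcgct
Id3 (chr4:136143572-136143821, plus strand): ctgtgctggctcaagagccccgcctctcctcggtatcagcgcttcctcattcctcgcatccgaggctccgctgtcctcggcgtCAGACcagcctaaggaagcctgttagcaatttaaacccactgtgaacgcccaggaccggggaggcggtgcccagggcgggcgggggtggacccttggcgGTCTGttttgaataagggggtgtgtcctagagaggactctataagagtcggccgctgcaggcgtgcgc
Id4 (chr13:48260866-48261115, plus strand): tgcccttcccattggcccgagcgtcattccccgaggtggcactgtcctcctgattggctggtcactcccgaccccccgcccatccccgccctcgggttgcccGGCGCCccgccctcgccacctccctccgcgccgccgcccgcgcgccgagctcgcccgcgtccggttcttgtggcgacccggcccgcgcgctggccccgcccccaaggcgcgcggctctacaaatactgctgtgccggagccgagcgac

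The window of Id2 held GGCGCC beginning 231 bases before the start, and that of Id4 held it 148 bases before. The window of Id3 held the CAGAC type at 167 and 68 bases before the start. GGCGCC occurred in 9.59% of all 32851 such windows and the CAGAC type in 42.2%. Among the 48 windows of the family's 41 genes these shares were 22.9% and 39.6%. The windows were not matched for base composition, so a difference in GGCGCC share was not tested as an excess of SMAD sites. A match describes letters, not binding.

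Against WT, 2 of the 4 Id genes were higher and 2 lower in KO (median -0.02). Id1 was 5.42, 5.46 and 5.60 in KO, 5.58, 5.40 and 5.57 in HET, and 5.29, 5.42 and 5.46 in WT (change 0.10, SE 0.086). Id2 was 6.78, 6.76 and 6.998 in KO, 6.87, 6.97 and 6.995 in HET, and 7.11, 6.27 and 6.83 in WT. WT replicate 2 was the lowest of all arrays for Id2, and without it the change of 0.11 became -0.13. Id3 was 4.75, 4.62 and 4.31 in KO, 4.91, 4.75 and 4.75 in HET, and 4.75, 4.94 and 4.62 in WT (change -0.21, SE 0.12). On 3 arrays its value lay below the lower quartile. Id4, which maintains neural stem cells and also marks astrocytes, was 9.09, 9.27 and 9.12 in KO, 9.44, 9.46 and 9.27 in HET, and 9.27, 9.30 and 9.32 in WT.

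Each KO value of Id4 lay below every HET and WT value, narrowly for KO replicate 2. Its changes were -0.14 against WT (SE 0.082, adjusted p = 0.93) and -0.23 against HET (SE 0.082, adjusted p = 0.67). Of the 8 astrocyte markers, Clu (change -1.05, SE 0.14), Apoe (-0.86, SE 0.11) and Aqp4 (-1.02, SE 0.17) fell in KO, Gja1, Slc1a2 and Gfap lay at -1.03, -0.62 and -0.31, and Aldh1l1 and S100b at 0.21 and 0.06. Their part in the Id4 values was not tested. Id1 and Id2 lay above 0 and Id3 and Id4 below in KO against WT. In KO against HET all 4 lay below 0 (median -0.17, beside 0.0029 over all genes), and in HET against WT all 4 lay above 0 (median 0.11, beside 0.0039 over all genes). None of the 4 passed in any comparison, and these comparisons share arrays.

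**Figure D3:**
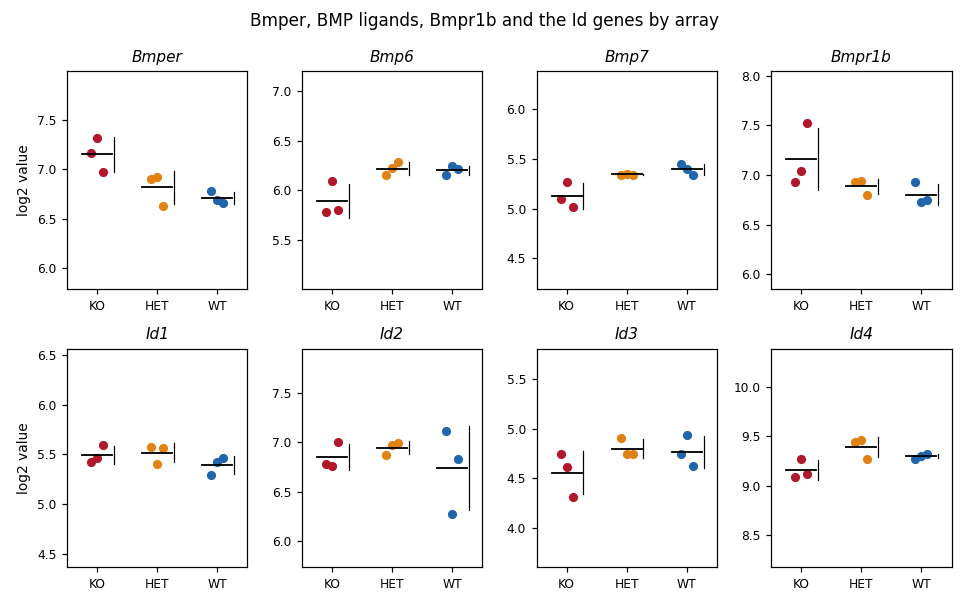
Log2 values of Bmper, Bmp6, Bmp7, Bmpr1b and Id1 to Id4 by genotype; points are arrays, horizontal bars means and vertical bars SD (n = 3), and every panel spans the same range. The KO points lie above all others for Bmper and below all others for Bmp6, Bmp7 and Id4, while Id1, Id2 and Id3 overlap.

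Of the 3 genes matched by name alone, KO and WT did not overlap for 2, where 9.98% of all genes did not. Tgfbrap1, whose product works in endosomal tethering and was first found bound to TGF-beta receptors, was 8.06, 7.74 and 8.19 in KO, 7.38, 7.89 and 7.87 in HET, and 7.45, 7.70 and 7.65 in WT. KO exceeded WT (change 0.39, SE 0.16, adjusted p = 0.73) but overlapped HET. Bmp1, a protease that processes procollagens and cleaves Chordin, was 7.03, 7.29 and 7.04 in KO, 7.03, 7.15 and 6.95 in HET, and 7.03, 6.93 and 6.97 in WT. Bmp2k, a kinase, had a KO against WT change of -0.22 with no overlap.

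Other genes of the pathway were taken from lists drawn from textbook knowledge, with earlier results of these data known. Of 85 such genes 82 were measured; in KO against WT 1 rose and 1 fell, where 0.166% and 0.286% of all genes did. The gene that rose was Rgma. It encodes repulsive guidance molecule A, a surface protein that acts as a BMP co-receptor and binds Neogenin (Neo1). Its values were 7.73, 7.69 and 7.81 in KO, 7.39, 7.39 and 7.23 in HET, and 6.93, 7.23 and 6.80 in WT arrays. KO stood clear of both other genotypes, and HET overlapped WT through WT replicate 2 alone. The rise was 0.75, or 1.68-fold (SE 0.11, 95% interval 0.51 to 0.99, adjusted p = 0.017).

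The Rgma call did not hold in 7 of the 20 other settings. It was lost without any 1 of KO replicates 1, 2 and 3 (adjusted p = 0.077, 0.055 and 0.093), without WT replicate 1 or 3 (0.12 and 0.072), with only the KO and WT arrays in the fit (0.11), and without KO replicate 2 and HET replicate 1 together (0.081). The change stayed between 0.66 and 0.87 in the 20 other settings.

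The other RGM family members were read beside it. Rgmb was 8.18, 7.89 and 8.22 in KO, 7.53, 7.73 and 7.73 in HET, and 7.43, 7.64 and 7.72 in WT, so that KO again lay above every other array. Its change of 0.50 (SE 0.11, 95% interval 0.25 to 0.75) had an adjusted p of 0.16 and passed with array weights only (0.031). Hjv, the iron-regulating member, had a change of -0.04, and the receptor Neo1 of -0.03 (95% interval -0.26 to 0.20).

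Htra1 was the gene that fell. It encodes a secreted serine protease that can hold back TGF-beta family signals and is made by astrocytes among others. Its values were 5.55, 5.25 and 5.62 in KO, 6.48, 6.74 and 6.29 in HET, and 6.60, 6.59 and 6.43 in WT arrays. KO lay well below both, and HET overlapped WT. It fell by 1.07 on the log2 scale against WT (SE 0.13, adjusted p = 0.0075), a call that ended when WT array 1 or 2 was left out (0.058 and 0.054). Of the astrocyte markers given above, 6 of 8 were lower in KO, and their part in the Htra1 values was not tested.

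**Figure D4:**
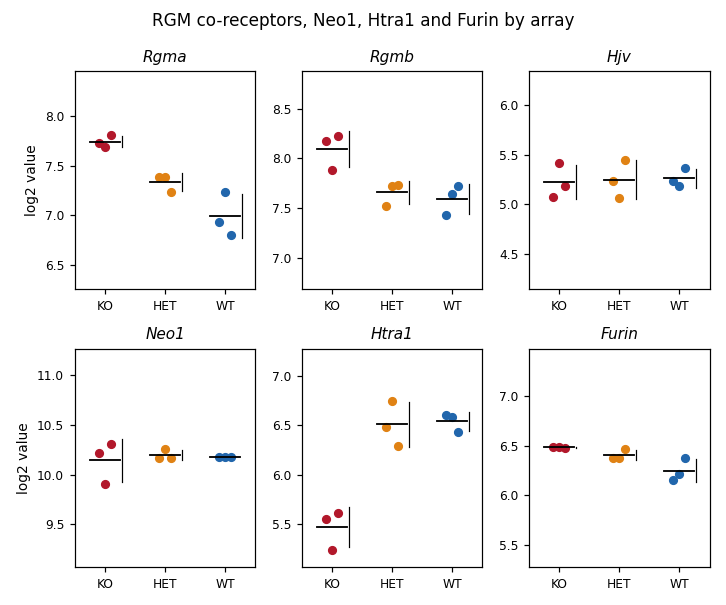
Log2 values of Rgma, Rgmb, Hjv, Neo1, Htra1 and Furin by genotype; points are arrays, horizontal bars means and vertical bars SD (n = 3), and every panel spans the same range. Rgma and Rgmb are highest in all 3 KO arrays, Htra1 is lowest in all 3, and Hjv and Neo1 overlap.

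The remaining pathway genes did not pass. Among 29 other ligands and modulators, Furin, the protease that matures the ligands, was 6.49, 6.49 and 6.48 in KO, 6.38, 6.38 and 6.46 in HET, and 6.15, 6.21 and 6.37 in WT. The genotypes stood in that order without overlap, with a KO against WT change of 0.24 (SE 0.078, adjusted p = 0.52). Fstl1, a secreted follistatin relative, had a change of -0.29. Among the 10 other receptors and co-receptors, Tdgf1, the nodal co-receptor Cripto, had a change of -0.24.

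None of 27 SMAD partners and regulators passed. Pmepa1, an inhibitor induced by TGF-beta, had a change of -0.30, Zfyve16, an endosomal protein that binds SMADs, -0.17 and Nedd4l, a ubiquitin ligase, 0.20. Ski and Skil, corepressors that PRDM16 is known to work with, had changes of 0.08 and 0.02. None of 16 measured target genes passed either, with Tagln, a smooth muscle gene, at 0.25, the cell cycle inhibitor Cdkn2b at -0.22 and Ldlrad4, a feedback inhibitor, at -0.19.

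In HET against WT no family gene passed by limma (0 of 57, and 0% of all genes), and 2 had an unadjusted p under 0.05 (3.51%), beside 4.05% of all genes: Bmp2 was higher (2.40% of all genes) and Tgfb3 lower (1.66% of all genes). Bmp2 was the only one whose groups did not overlap (1.75%, beside 6.85% of all genes, 3.75% higher and 3.10% lower). It was 4.57, 4.64 and 4.72 in HET and 4.48, 4.39 and 4.35 in WT arrays, a change of 0.24 (SE 0.076, adjusted p = 0.99). The KO arrays, at 4.54, 4.41 and 4.48, did not continue that direction, and 7 of the 9 values lay below their array's lower quartile.

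The other members with the smallest unadjusted p overlapped. Tgfb3 had a HET against WT change of -0.28 (SE 0.12), with HET replicate 1 inside the WT range. Acvr2a lay at 0.20 (SE 0.11). Gdf10, a ligand made by cerebellar Bergmann glia, was 5.89, 5.92 and 5.89 in KO, 5.91, 5.62 and 5.91 in HET, and 6.04, 5.91 and 5.95 in WT, a HET against WT change of -0.15 (SE 0.090). The 95% interval lay within 1.5-fold for 56 of the 57 genes in this comparison (94.6% of all genes), Id2 being the exception, and within 2-fold for all 57 (99.5% of all genes). No other gene of the pathway lists passed.

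In KO against HET no family gene passed either (0 of 57, where 0.206% of all genes did). At an unadjusted p under 0.05 there were 7 (12.3%), beside 6.16% of all genes, with Bmper and Smad3 higher (2.87% of all genes) and Acvr1c, Bmp2, Bmp6, Bmp7 and Id4 lower (3.30% of all genes). KO and HET did not overlap for 5 genes (8.77%, beside 6.54% of all genes): Bmper above (3.45% of all genes), and Bmp2, Bmp6, Bmp7 and Id4 below (3.09% of all genes). Bmp6 had a change of -0.33 (SE 0.093, adjusted p = 0.44), Bmper 0.33 (SE 0.11, adjusted p = 0.61) and Acvr1c -0.56 (SE 0.17, adjusted p = 0.53). This comparison shares the KO arrays with KO against WT, so these are not separate evidence. The 95% interval lay within 1.5-fold for 55 of the 57 genes (93.5% of all genes), all but Acvr1c and Tgfbrap1, and within 2-fold for all 57 (99.1% of all genes).

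Of the other pathway genes, 0 rose in KO against HET (0.0451% of all genes) and 1 fell (0.160% of all genes). This was again Htra1, with a log2 change of -1.03 (SE 0.13, adjusted p = 0.013). That call was lost without KO replicate 2 (0.052) or HET replicate 2 (0.072), with the replicate number as a block (0.054) with only the KO and HET arrays (0.14), and without KO replicate 2 and HET replicate 1 together (0.078). Rgma had a KO against HET change of 0.41 (SE 0.11, adjusted p = 0.39) and a HET against WT change of 0.34 (SE 0.11, adjusted p = 0.99), neither of which passed.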

How the data were processed

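The authors deposited log2 values of 28940 probe sets on 9 arrays, none of them missing. RMA, affy and limma are listed, unversioned, in the submitters' processing notes; the annotation and genome build they used are not given in the sources used here. RMA summarises probes after background correction and normalization between arrays, so values are relative within a probe set. Levels across genes served to choose named genes and to mark low values. They were not read as amounts of transcript. Detection calls were not used, and the 3 arrays per genotype limit the precision.

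Probe sets with 1 gene symbol (21789) were kept, those with several (1621) or not listed (5530) left out, and the one with the highest mean per gene was taken, giving 19938 genes. limma 3.58.1 in R 4.3.3 (lmFit, eBayes, two-sided) fitted all 9 arrays with a mean per genotype and no covariate, with Benjamini-Hochberg adjustment over all genes; an adjusted p under 0.05 was a call. The fit was tested on simulated data. The members, gene lists and tests were chosen with earlier results of these data known. Values in every array were given for the 4 members of smallest unadjusted p in each comparison, the 2 of highest mean in each role and the Id genes, with values or changes of the 3 leading genes of each pathway list and of every called gene. Bmp4, Smad3, Hjv, Neo1, Ski and Skil were named for their role after their values were seen.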

Additional observations from a re-analysis of the deposited data

How the results depend on the processing

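The family had 0 calls in all 3 comparisons in every setting run, and HET against WT had 0 calls over all genes. Counts over all genes moved. KO against WT had 90, against 33 with only the arrays compared, 151 with array weights, 50 without KO replicate 2 and HET replicate 1 (added after seeing the data) and 23 to 77 with 1 array left out. KO against HET had 41, against 19 with the replicate block, 8 with only the arrays compared, 26 with every probe set tested, 21 with median centring, 24 with Xist as a covariate for sex (added after seeing the data) and 12 to 75 with 1 array left out. Other pathway genes called in KO against WT numbered 2, against 1 with only the arrays compared, 1 without KO replicate 2 and HET replicate 1, and 0 to 2 with 1 array left out. In KO against HET they numbered 1, against 0 with the replicate block, with only the arrays compared and without those 2 arrays, and 0 to 1 with 1 array left out. Non-overlapping family genes numbered 8 in KO against WT, against 13 with median centring, 13 without those 2 arrays and 8 to 14 with 1 array left out; fewer arrays overlap less by construction. In HET against WT they numbered 1, against 0 without the dimmest 1 in 3 genes, 4 with quantile normalization, 3 with median centring, 10 without those 2 arrays and 1 to 10 with 1 array left out. In KO against HET they numbered 5, against 21 without those 2 arrays and 5 to 13 with 1 array left out. The family's median change in KO against WT was 0.015 with median centring and -0.0004 to 0.032 with 1 array left out, and in KO against HET -0.018 to 0.019. Same-numbered arrays of different genotypes had deviations correlated between -0.34 and 0.06, which gave no sign of pairing by number. Shared litters or processing batches were not tested. Changes that passed no test and lay within 1 standard error of 0 were treated as having no direction, and on that basis no named gene changed sign. Leaving out the dimmest genes left 44 of the 57 family genes tested.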
